A study of Mus musculus with 108 samples.

Results

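Cytosolic ribosomal protein genes were compared among 6 inbred mouse strains in 6 tissues. The genes were those whose symbol begins with Rpl or Rps followed by a digit, or with Rplp, on probe sets that name a single gene. Rps6k kinase genes and 1 pseudogene symbol (Rps15a-ps6) were left out, 7 genes in all. This gave 49 of the 18193 genes measured: 23 with Rps symbols, 24 with Rpl symbols and 2 with Rplp symbols. Each gene was read on its brightest single-gene probe set by mean log2 over all arrays. The symbols also took in 1 gene that is not a subunit of the ribosome, Rps19bp1, whose product binds the small-subunit protein Rps19, and 6 paralogs (Rpl3l, Rpl7l1, Rpl22l1, Rpl39l, Rps4l and Rps27l). A further 31 ribosomal protein symbols, Rpl3 and Rpl10 among them, occur only on probe sets that name several genes and were not analysed here.

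The strains were A/J, DBA2/J, 129S2, C3HeB/FeJ, AKR/J and C57BL/6J, the last being the strain of the mouse reference genome and the one the others were set against. All animals were males of 11 to 14 weeks, and no label gives a treatment or an engineered allele. Brain, heart, kidney, liver, lung and testis were taken whole from 22 animals, and total RNA was hybridised to Affymetrix whole-genome mouse arrays, with 3 arrays in each of 36 groups by strain and tissue. The C57BL/6J brain, heart and lung came from animals numbered 2, 3 and 4 and the kidney, liver and testis from animals 10, 11 and 12, and the 129S2 tissues came from animals 1, 2 and 3 or 2, 3 and 4 along the same division. Between those tissue sets, a tissue dependence of a difference from C57BL/6J therefore cannot be told apart from a difference between the animals. The sample titles name 1 animal per array, while the labelling protocol speaks of a pool, and the arrays were treated as separate animals. The values are log2 signals as deposited, so a difference of 1 is a doubling of signal. A signal from whole tissue cannot tell fewer cells of a type from less RNA per cell.

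Ribosomal proteins assemble with ribosomal RNA into a small subunit, which decodes the mRNA, and a large subunit, which joins amino acids and carries a flexible stalk that recruits translation factors. Their mRNAs are among the most abundant in any cell, and most begin with a pyrimidine tract (the terminal oligopyrimidine tract) through which mTOR signalling controls their translation as a group. A few members have paralogs that are restricted to 1 tissue, such as Rpl3l in striated muscle and Rpl39l in testis, and mammalian genomes hold many processed pseudogenes of this family.

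The starts of 8 of these genes are printed here to show that tract, because 5 of the genes are among those the strain comparison turned on (Rps6, Rpl14, Rps25, Rps2 and Rpl13a), Rpl7a was among the steadiest, and Rpl39l and Rpl3l are paralogs restricted to 1 tissue. The sequences come from RefSeq (GRCm38.p6), are read 5′ to 3′ on the gene's strand, and hold 40 bases before and 20 bases from the annotated start site. Capitals mark the longest run taken from the first C of a pyrimidine stretch (C or T), with at least 5 more pyrimidines, where that C lies within 20 bases of the start site on either side.
Rps6, chr4:86857348-86857407, minus strand: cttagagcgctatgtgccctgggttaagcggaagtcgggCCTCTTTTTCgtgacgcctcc
Rpl14, chr9:120571477-120571536, plus strand: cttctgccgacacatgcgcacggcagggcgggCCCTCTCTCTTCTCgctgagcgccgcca
Rps25, chr9:44407674-44407733, plus strand: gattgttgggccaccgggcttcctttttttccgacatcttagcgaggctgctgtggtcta
Rps2, chr17:24720023-24720082, plus strand: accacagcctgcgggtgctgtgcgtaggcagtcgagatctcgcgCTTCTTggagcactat
Rpl13a, chr7:45128726-45128785, minus strand: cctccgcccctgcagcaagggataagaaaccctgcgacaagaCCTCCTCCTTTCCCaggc
Rpl7a, chr2:26910767-26910826, plus strand: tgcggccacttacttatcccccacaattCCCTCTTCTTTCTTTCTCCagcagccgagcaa
Rpl39l, chr16:10170188-10170247, plus strand: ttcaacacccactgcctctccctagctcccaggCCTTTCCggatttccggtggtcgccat
Rpl3l, chr17:24727786-24727845, plus strand: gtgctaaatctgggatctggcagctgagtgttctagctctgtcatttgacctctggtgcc

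Of the 49 genes, 43 had an entry in the promoter table, and 27 of these 43 (62.8%) held such a run, against 34.2% of all 27025 genes in the table. Rpl14, which differed widely among strains below, and Rpl7a, which did not, both hold a long run. The run of Rps25 opens 22 bases before the start site, just outside the window, and Rpl3l holds none in the window. With any C of a stretch allowed to open the run, 28 of the 43 genes held one (65.1%), Rps25 among them, against 35.4% of all genes. The hexamer CGGAAG, the core of the ETS factor motif, was found on either strand of the 300-base window of 30 of the 43 genes (69.8%), against 18.8% of all genes. Read on the opposite strand the hexamer is CTTCCG, whose first 5 letters are pyrimidines, so the run and the hexamer can overlap. These matches describe the letters of the windows and were not tested further.

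On every array the markers of the labelled tissue were the highest of the tissue lists. Array medians varied between tissues far more than inside one, so strains were compared within a tissue only. Each array's deviations from its tissue's gene means were correlated with those of the tissue's other arrays, over genes with a mean log2 of 6 or more. For 105 arrays the closest array was of the same strain. Brain array 129S2 2 was closest to brain array AKR/J 2 and the reverse (r = 0.583 across genes), and heart array 129S2 3 was closest to an array of C57BL/6J (r = 0.32 across genes), genes not being independent replicates. Heart array 129S2 2 and lung array C3HeB/FeJ 3 also stood apart, in ways described beside the genes concerned. The counts for brain, heart and lung and for the contrasts averaged over tissues are given with and without these 5 arrays.

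Bright ribosomal protein genes passed the test of strain differences in a smaller share than all bright genes, except in heart under another prior, and a few members differed widely. Among bright genes, those whose log2 signal averaged 10 or more in the tissue, the moderated F test of limma with Benjamini-Hochberg adjustment (threshold 0.05) was passed by 8 of 35 ribosomal protein genes in kidney, against 71.4% of all such genes. The counts were 8 of 35 in liver, against 59.6%, 2 of 35 in lung, against 40.5%, 4 of 34 in brain, against 26.1%, 14 of 36 in testis, against 49.8%, and 10 of 36 in heart, against 32%. Among the still brighter genes with a mean of at least 12, 6 of 32 passed in kidney, against 61.4%, and 2 of 34 in lung, against 35.3%. With a prior that follows intensity and is robust, the shares of bright ribosomal protein genes were 54.3% in kidney, against 82.2% of all bright genes, 34.3% in liver, against 69.3%, 14.3% in lung, against 46.2%, 29.4% in brain, against 42.2%, and 63.9% in testis, against 68.4%, while heart had 41.7%, against 36%. The difference between these shares was not tested.

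Over all 49 genes, whatever their brightness, 16 passed in kidney, where 46.1% of all genes tested passed. In testis 20 of 49 passed, against 40.5% of all genes, in lung 6, against 32.5%, in liver 13, against 31.6%, in brain 9, against 23.1%, and in heart 16, against 21%. With this prior the share in testis was at the background, those in brain, kidney, liver and lung were below it, and that in heart was above it. That order depended on the prior: with the one that follows intensity, 16 passed in brain (32.7%, against 27.2% of all genes), 27 in kidney (55.1%, against 47.5%), 17 in liver (34.7%, against 32.6%), 29 in testis (59.2%, against 43.5%), 21 in heart (42.9%, against 21.1%) and 9 in lung (18.4%, against 33.7%). Lung was thus the tissue below the background under both. In lung, 5 passed without array C3HeB/FeJ 3 (33.7% of all genes then passed), the call of Rpl13a being lost (adjusted p = 0.0587, limma). By subunit, in testis 11 of 20 small-subunit genes passed, against 6 of 20 large-subunit genes, both without the paralogs and the stalk genes Rplp0 and Rplp2. The difference between the subunits was not tested.

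**Figure D1:**
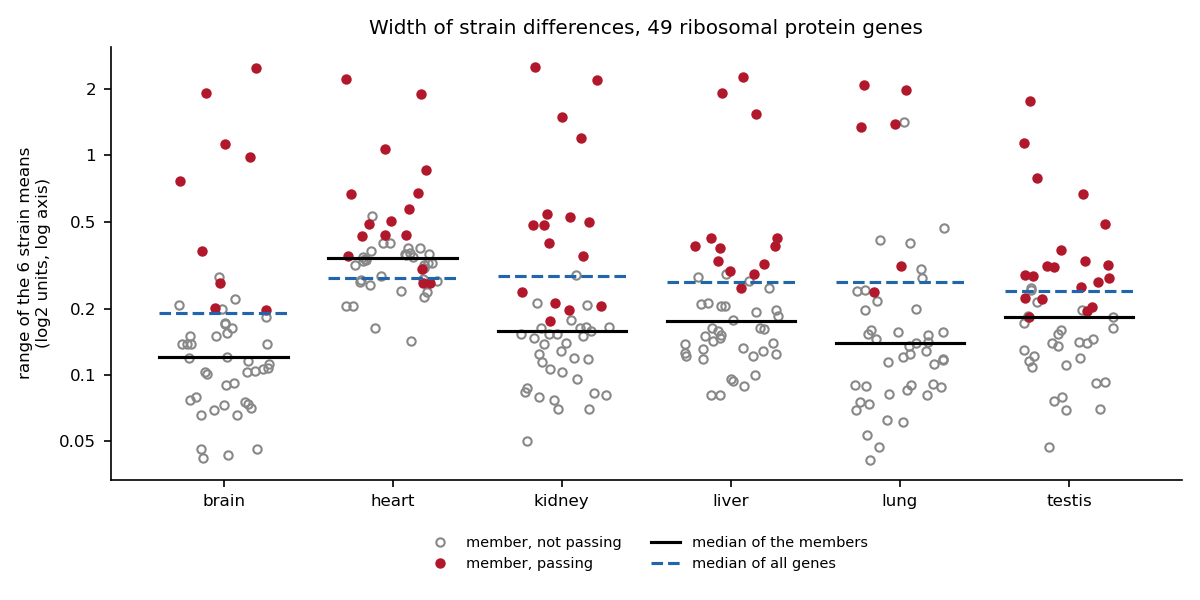
Range of the 6 strain means (log2 units, log axis) for each of the 49 ribosomal protein genes by tissue. Filled points passed the F test, open points did not, the solid line is the median of the 49 genes and the dashed line that of all genes tested. The solid line lies under the dashed line in every tissue except heart, while a few genes stand above 1 log2 unit.

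The strain means of a ribosomal protein gene lay close together in most cases, chiefly among the brighter members. The median range of the 6 strain means was 0.12 log2 units in brain (0.15 without arrays 129S2 2 and AKR/J 2), against 0.19 for all genes, 0.16 in kidney, against 0.28, 0.18 in liver, against 0.26, 0.14 in lung, against 0.26, and 0.18 in testis, against 0.24. Heart was the exception, with 0.34, against 0.28 for all genes. The narrow ranges were those of the 35 members averaging at least 10 over all arrays. Their median was 0.14 in kidney and 0.12 in lung, against 0.48 and 0.36 for the 14 dimmer members. The dimmer members lay above the all-gene median there, and also in heart (0.43) and brain (0.21). They lay below it in testis (0.21) and level with it in liver (0.26). All genes were not matched for brightness in these ranges and SDs. Replicates were also tighter for the 49 ribosomal protein genes, with a median residual SD of 0.0437 log2 units in kidney, against 0.107 for all genes, and of 0.125 in heart, against 0.131.

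**Figure D2:**
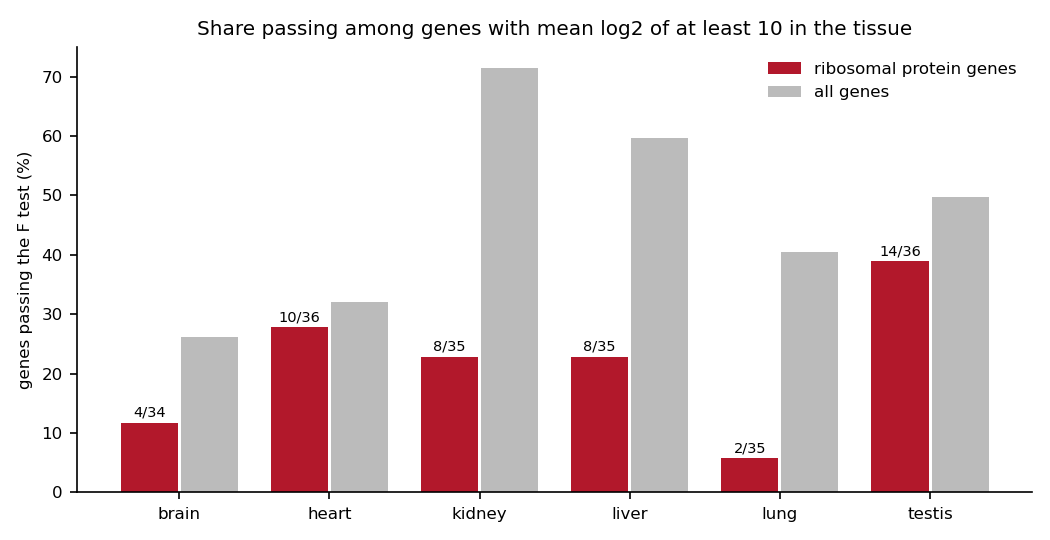
Percentage of genes passing the F test among bright genes (average log2 signal of 10 or more), for ribosomal protein genes (left bars, with the number passing over the number measured) and for all genes (right bars). The left bar is the lower one in each of the 6 tissues, from 2 of 35 in lung to 14 of 36 in testis. All arrays were used.

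The steadiest members, by the median of their 6 ranges, were Rpl6, Rps29 and Rpl7a. Rpl6, a large-subunit protein, had a median range of 0.083, Rps29, a small-subunit protein, of 0.098 and Rpl7a, a large-subunit protein, of 0.10 log2 units. In brain the 6 strain means of Rpl7a lay between 12.66 and 12.70, a range of 0.042 (adjusted p = 0.961, limma). Rpl7a passed in none of the 6 tissues. Rps29 passed in liver (range 0.32, adjusted p = 0.00131), where it read 13.74 in C3HeB/FeJ and 13.42 in DBA2/J on average. Rpl6 passed in heart (range 0.30, adjusted p = 0.0407), a call lost in 16 of 28 alternative settings. In all, 18 of the 49 genes passed in no tissue, 15 in 1, 4 in 2, 2 in 3, 3 in 4, 3 in 5 and 4 in all 6 tissues. The 4 were Rps4l, Rpl14, Rps6 and Rps14. The like counts were not made over all genes, so these are not set against a background.

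Rps4l, the autosomal paralog of the X-linked small-subunit gene Rps4x, had the widest strain differences of the family in 5 tissues. The kidney arrays read 5.59, 6.31 and 6.06 in A/J, 7.36, 7.14 and 7.07 in DBA2/J, 7.20, 7.30 and 7.27 in 129S2, 7.23, 6.85 and 7.07 in C3HeB/FeJ, 6.85, 7.46 and 7.05 in AKR/J, against 8.58, 8.55 and 8.43 in C57BL/6J. The A/J arrays were the lowest and the C57BL/6J arrays the highest, and neither overlapped any other strain. The range was 2.54 log2 units (5.81-fold, adjusted p = 3.2e-08). The same strains were at the ends in brain (range 2.52, adjusted p = 1.15e-05), heart (2.22, 6.95e-07), liver (2.28, 0.000133) and lung (2.09, 1.57e-06).

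In testis Rps4l stood at another level and was nearly even. It read 11.03, 10.98 and 11.03 in A/J, 10.94, 10.99 and 11.00 in DBA2/J, 11.20, 11.03 and 11.11 in 129S2, 11.06, 11.01 and 11.04 in C3HeB/FeJ, 10.95, 11.01 and 11.02 in AKR/J, against 11.20, 11.08 and 11.23 in C57BL/6J. The strains overlapped, the range was 0.20 log2 units, and the call (adjusted p = 0.0401) was lost in 16 of 27 alternative settings. The strain difference of Rps4l depended on the tissue by the interaction test over all arrays (adjusted p = 5.34e-08). Averaged over tissues, Rps4l was lower than in C57BL/6J by all 5 contrasts, with differences of -1.97 ± 0.0912 in A/J, -1.002 ± 0.0912 in DBA2/J, -0.73 ± 0.0908 in 129S2, -1.16 ± 0.0912 in C3HeB/FeJ and -1.14 ± 0.0912 in AKR/J (difference ± SE, limma; adjusted p from 2.4e-10 in 129S2 to 5.79e-32 in A/J). Rps4l has 1 probe set, so no second reading was at hand, and whether its probes match the sequence of each strain was not tested.

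**Figure D3:**
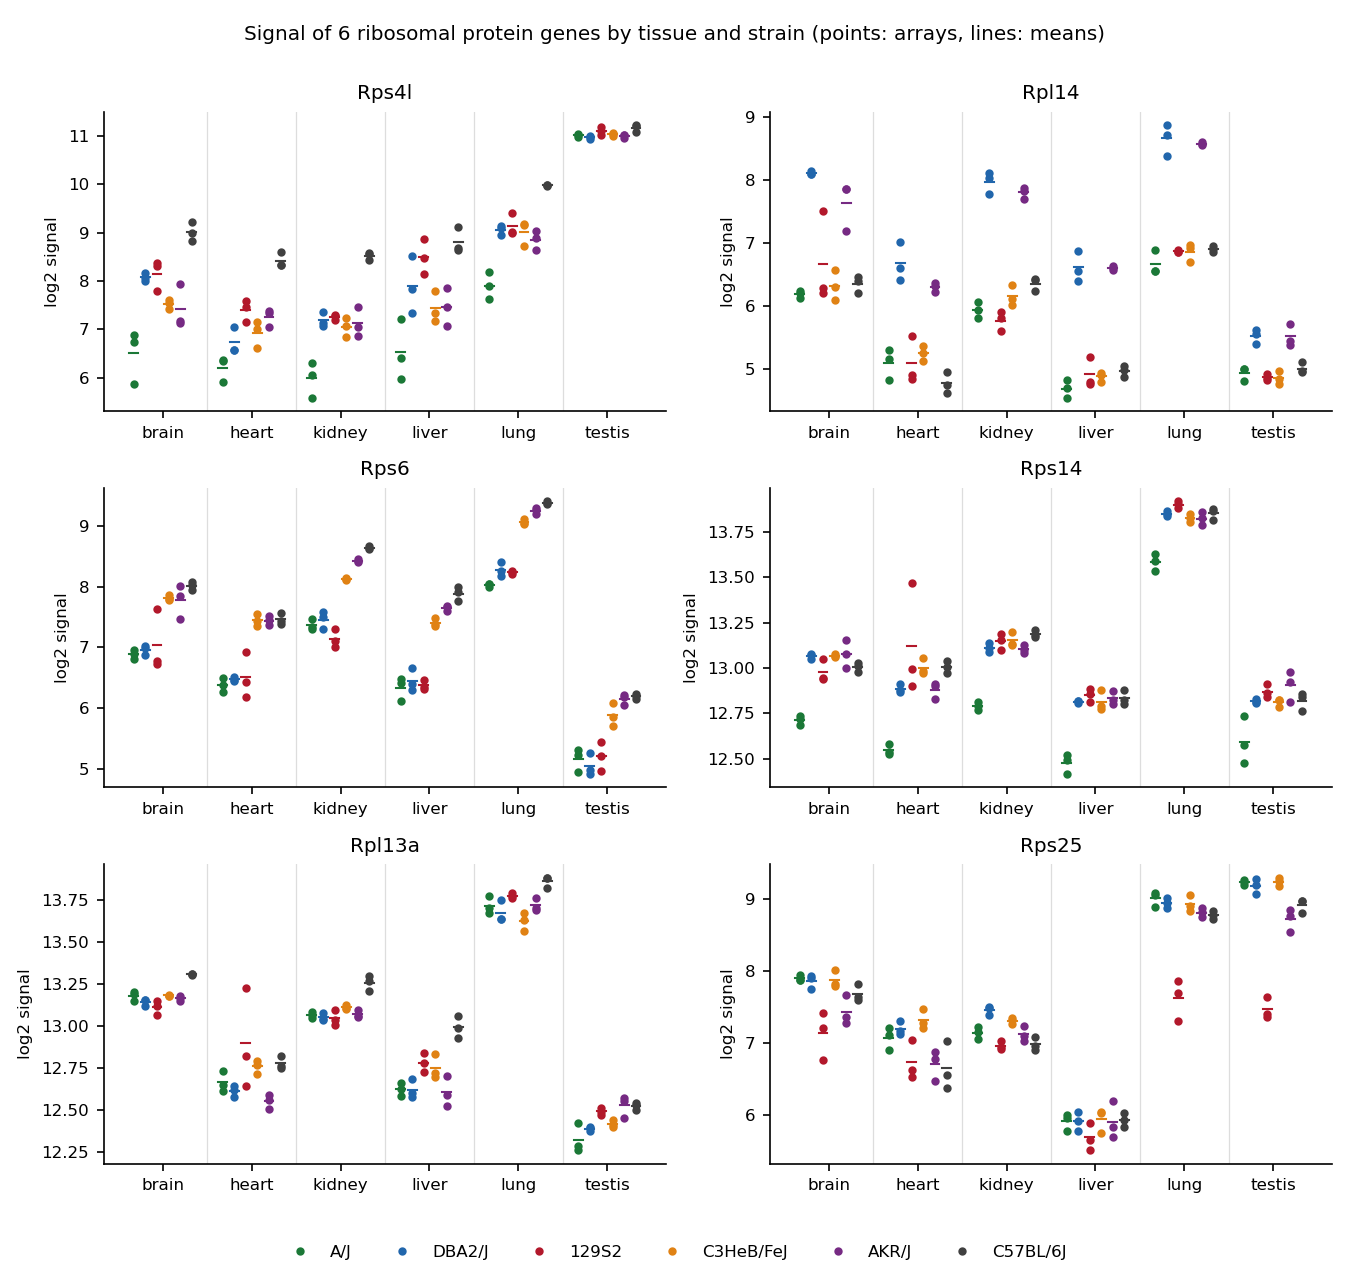
Log2 signal of Rps4l, Rpl14, Rps6, Rps14, Rpl13a and Rps25 on each array (points) with the strain mean (lines), by tissue, with C57BL/6J at the right of each tissue. Rps4l is lowest in A/J in all tissues but testis, Rpl14 is high in DBA2/J and AKR/J, Rps6 is low in A/J, DBA2/J and 129S2 (brain array 129S2 2 lies between), Rps14 is low in A/J, Rpl13a is high in C57BL/6J in brain, kidney, liver and lung, and Rps25 is low in 129S2 in lung and testis.

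Rpl14, a large-subunit protein, had its highest strain means in DBA2/J and AKR/J in every tissue. Its kidney signals were 6.07, 5.81 and 5.95 in A/J, 8.11, 8.03 and 7.78 in DBA2/J, 5.81, 5.60 and 5.91 in 129S2, 6.01, 6.12 and 6.34 in C3HeB/FeJ, 7.88, 7.83 and 7.71 in AKR/J, against 6.41, 6.24 and 6.43 in C57BL/6J. Every DBA2/J and AKR/J array lay above every array of the other 4 strains. The range was 2.21 log2 units (4.61-fold, adjusted p = 8.05e-12, limma), with ranges of 1.91 to 2.00 in brain, heart, liver and lung and of 0.67 in testis (adjusted p from 4.58e-05 in brain to 1.46e-10 in liver). Averaged over tissues, Rpl14 was higher than in C57BL/6J by 1.53 ± 0.0700 in DBA2/J (adjusted p = 1.5e-32) and by 1.35 ± 0.0700 in AKR/J (5.85e-29).

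On the other Rpl14 probe sets the strains lay far closer together. The probe set used was dim, with a mean of 6.18 over all arrays. The 5 probe sets that name Rpl14 and 1 other gene (the pseudogene Rpl14-ps1 on the brightest) were brighter, with tissue means from 9.82 to 12.87, and the strain means of these lay 0.092 to 0.35 log2 units apart. On the brightest of these in kidney, the means were 12.02 in A/J, 12.01 in DBA2/J, 11.85 in 129S2, 11.97 in C3HeB/FeJ, 12.04 in AKR/J, against 11.97 in C57BL/6J. DBA2/J and AKR/J were the 2 highest strains on 5 of the 5 probe sets in brain, 4 of 5 in kidney and 4 of 5 in testis, and on none in heart, liver and lung. Those probe sets can also read the other gene they name.

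Rps6, the small-subunit protein that S6 kinases phosphorylate downstream of mTOR, also split the strains, along another line. In lung it read 8.04, 8.05 and 7.99 in A/J, 8.26, 8.18 and 8.40 in DBA2/J, 8.24, 8.26 and 8.20 in 129S2, 9.02, 9.05 and 9.12 in C3HeB/FeJ, 9.19, 9.28 and 9.26 in AKR/J, against 9.40, 9.38 and 9.35 in C57BL/6J. All arrays of A/J, DBA2/J and 129S2 lay below all arrays of C3HeB/FeJ, AKR/J and C57BL/6J. The range was 1.35 log2 units (2.55-fold, adjusted p = 7.34e-11, limma), and across the 6 tissues it ran from 1.07 in heart to 1.55 in liver. Averaged over tissues, the differences from C57BL/6J were -1.23 ± 0.0526 in A/J, -1.15 ± 0.0526 in DBA2/J, -1.17 ± 0.0523 in 129S2, -0.31 ± 0.0526 in C3HeB/FeJ and -0.15 ± 0.0526 in AKR/J, each with the same sign in 6 of 6 tissues (adjusted p from 0.0275 in AKR/J to 2.47e-34 in A/J).

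Here too the brighter probe sets read otherwise. The Rps6 probe set used had a mean of 7.26. The 8 probe sets with a mean of at least 8 that name Rps6 and 1 other gene had ranges of 0.046 to 0.41 log2 units, all below the lowest range of 1.07 on the probe set used. On the brightest, which also names the pseudogene Rps6-ps4, the lung means were 14.23 in A/J, 14.23 in DBA2/J, 14.21 in 129S2, 14.20 in C3HeB/FeJ, 14.22 in AKR/J, against 14.28 in C57BL/6J. The other single-gene probe set of Rps6 was dim, with a mean of 3.63 in kidney, and did not pass there (adjusted p = 0.189, limma over all single-gene probe sets).

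Rps25, a small-subunit protein used in some internal ribosome entry, was low in 129S2 in brain, lung and testis. In testis it read 9.20, 9.23 and 9.27 in A/J, 9.19, 9.08 and 9.29 in DBA2/J, 7.37, 7.64 and 7.41 in 129S2, 9.18, 9.25 and 9.30 in C3HeB/FeJ, 8.54, 8.77 and 8.85 in AKR/J, against 8.97, 8.81 and 8.97 in C57BL/6J. The 129S2 arrays lay below all others (range 1.77, 3.41-fold, adjusted p = 6.39e-11, limma). In lung 129S2 was again apart, at 7.62 ± 0.283, against 8.78 ± 0.0522 in C57BL/6J (mean ± SD, n = 3 each; range over strains 1.39, adjusted p = 4.7e-07). In brain 129S2 was also lowest (range 0.76, adjusted p = 0.00107). Heart went otherwise: it passed (range 0.67, adjusted p = 0.0115) with 7.32 in C3HeB/FeJ, the highest strain, 6.73 in 129S2 and 6.66 in C57BL/6J, the lowest. In kidney 129S2 was the lowest strain at 6.96, against 6.98 in C57BL/6J (range 0.50, adjusted p = 4.77e-05). In liver, where the signal was 5.88 on average, no difference passed (range 0.25, adjusted p = 0.503). The difference from C57BL/6J in 129S2 averaged -0.56 ± 0.0518 (adjusted p = 2e-15), and the interaction with tissue passed (adjusted p = 8.01e-14).

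The bright probe set that names Rps25 and 2 other genes did not show the low 129S2 signal in lung and testis. It had a range of 0.056 in lung, with 129S2 highest, and of 0.067 in testis, with 129S2 lowest at 12.10, against 12.10 in C57BL/6J. In brain and kidney 129S2 was the lowest on that probe set as well, with ranges of 0.21 and 0.25.

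Rps14, a small-subunit protein of the platform where mRNA and the initiator tRNA bind, was the member with a bright probe set that passed in all 6 tissues, and it was low in A/J. In kidney it read 12.77, 12.81 and 12.79 in A/J, 13.11, 13.09 and 13.14 in DBA2/J, 13.16, 13.10 and 13.19 in 129S2, 13.13, 13.13 and 13.20 in C3HeB/FeJ, 13.13, 13.09 and 13.10 in AKR/J, against 13.18, 13.17 and 13.21 in C57BL/6J. The A/J arrays lay below every other array and the other 5 strains lay together. A/J had the lowest mean in 6 of 6 tissues, with ranges of 0.31 in testis to 0.57 in heart (adjusted p from 2.27e-05 in kidney to 0.00806 in heart, limma). Without arrays 129S2 2 and 129S2 3 the heart range was 0.46 (adjusted p = 0.000242), with A/J again lowest. Averaged over tissues, A/J was lower than C57BL/6J by a difference of -0.33 ± 0.0244 (adjusted p = 2.36e-20). The second probe set of Rps14 gave a range of 0.45 in kidney with the same highest and lowest strains. Both probe sets carry the suffix that Affymetrix gives to probe sets able to bind similar sequences.

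Rps2, a small-subunit protein near the mRNA entry site, differed by tissue. In brain it read 12.81, 12.81 and 12.81 in A/J, 12.39, 12.28 and 12.39 in DBA2/J, 12.84, 13.06 and 12.82 in 129S2, 13.31, 13.32 and 13.37 in C3HeB/FeJ, 13.16, 12.97 and 13.12 in AKR/J, against 12.76, 12.66 and 12.66 in C57BL/6J. C3HeB/FeJ lay above and DBA2/J below all other strains (range 0.98, 1.97-fold, adjusted p = 1.67e-07, limma). DBA2/J had the lowest mean in 5 of 6 tissues. In lung the strains were level (range 0.074, adjusted p = 0.868), and the interaction with tissue was the strongest among the members described here (adjusted p = 4.75e-19).

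The 2 probe sets that name Rps2 and 2 other genes had the same strains at the ends in brain, with ranges of 1.10 and 1.14. On the brighter of these the brain means were 13.03 in A/J, 12.52 in DBA2/J, 13.11 in 129S2, 13.62 in C3HeB/FeJ, 13.32 in AKR/J, against 12.88 in C57BL/6J. In lung its range was 0.13.

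Rpl13a, a large-subunit protein also known for silencing inflammatory mRNAs after release from the ribosome, was highest in C57BL/6J in brain, kidney, liver and lung. In liver it read 12.58, 12.66 and 12.62 in A/J, 12.58, 12.60 and 12.68 in DBA2/J, 12.78, 12.73 and 12.84 in 129S2, 12.72, 12.83 and 12.69 in C3HeB/FeJ, 12.70, 12.59 and 12.52 in AKR/J, against 12.93, 12.99 and 13.06 in C57BL/6J. All C57BL/6J arrays lay above all others (range 0.39, adjusted p = 0.00129, limma). Averaged over tissues all 5 strains were lower than C57BL/6J, by differences from -0.10 ± 0.0243 in 129S2 to -0.21 ± 0.0244 in DBA2/J. The bright probe set that names Rpl13a and 1 other gene put C57BL/6J highest in the same 4 tissues, with a range of 0.37 in liver.

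Rplp0, the protein that anchors the stalk of the large subunit, passed in heart, kidney and liver. The kidney arrays read 12.81, 12.88 and 12.80 in A/J, 12.62, 12.54 and 12.65 in DBA2/J, 12.69, 12.62 and 12.69 in 129S2, 12.78, 12.81 and 12.80 in C3HeB/FeJ, 12.79, 12.78 and 12.76 in AKR/J, against 12.89, 12.95 and 13.02 in C57BL/6J. The C57BL/6J arrays lay above all others, and DBA2/J and 129S2 were the lowest strains (range 0.35, adjusted p = 0.000452, limma). Averaged over tissues, Rplp0 was lower in all 5 strains than in C57BL/6J, most in DBA2/J at -0.19 ± 0.0216 (adjusted p = 6.13e-12). Rplp2, a second stalk protein, passed in no tissue.

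Rps3, a small-subunit protein at the mRNA entry channel that also acts in DNA repair, passed in heart, kidney, liver and testis. Its kidney signals were 12.49, 12.53 and 12.44 in A/J, 12.64, 12.64 and 12.70 in DBA2/J, 12.49, 12.50 and 12.43 in 129S2, 12.72, 12.70 and 12.71 in C3HeB/FeJ, 12.51, 12.52 and 12.52 in AKR/J, against 12.51, 12.55 and 12.58 in C57BL/6J. DBA2/J and C3HeB/FeJ lay above the other 4 strains without overlap (range 0.24, adjusted p = 0.00194, limma). A second, dimmer Rps3 probe set read the reverse: in kidney it averaged 6.80 in A/J, 4.92 in DBA2/J, 6.81 in 129S2, 5.23 in C3HeB/FeJ, 7.02 in AKR/J, against 6.75 in C57BL/6J, so that DBA2/J and C3HeB/FeJ were the lowest.

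Single-gene probe sets of 1 member could be set against each other for part of the calls. The 49 genes gave 80 calls over the 6 tissues, and for 44 of these calls the gene had no second single-gene probe set. For the rest there were 72 further readings, of which 51 had the same sign between the 2 end strains and 21 the opposite sign. Among the 42 readings with a mean of at least 8, the counts were 41 and 1. The opposite readings thus lay almost all on dim probe sets.

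Rpl22l1, the paralog of Rpl22, passed in brain, heart, kidney and liver. In kidney it read 11.37, 11.31 and 11.39 in A/J, 11.42, 11.60 and 11.55 in DBA2/J, 11.29, 11.14 and 11.19 in 129S2, 11.28, 11.22 and 11.53 in C3HeB/FeJ, 11.15, 11.16 and 11.16 in AKR/J, against 11.07, 10.83 and 11.05 in C57BL/6J. C57BL/6J was the lowest strain without overlap (range 0.54, adjusted p = 0.00051, limma). Its parent gene Rpl22 passed in testis alone (range 0.22, adjusted p = 0.0159), and whether the pair differed in this was not tested. The call of Rpl22l1 in liver was lost in 20 of 27 alternative settings and that in brain in 9 of 28.

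Rpl7l1, a paralog of Rpl7, had its lowest mean in 129S2 in 6 of 6 tissues and passed in heart, kidney and liver. The kidney arrays read 9.26, 9.18 and 9.23 in A/J, 9.29, 9.56 and 9.42 in DBA2/J, 8.93, 8.91 and 8.87 in 129S2, 9.34, 9.14 and 9.31 in C3HeB/FeJ, 9.41, 9.47 and 9.36 in AKR/J, against 9.26, 9.29 and 9.32 in C57BL/6J, so that 129S2 lay below all others (range 0.52, adjusted p = 6.2e-05, limma). The difference from C57BL/6J in 129S2 averaged -0.23 ± 0.0344 (adjusted p = 4.05e-08). Rps27l, a paralog of Rps27 known as a p53 target, passed in kidney (range 0.21) and testis (range 0.29). Rpl7 passed in no tissue, and Rps27 in brain (range 0.26, adjusted p = 0.00681).

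Rps19bp1, which is not a ribosome subunit, passed in heart, kidney, liver and testis. In kidney it averaged 8.98 in DBA2/J and 8.50 in 129S2, the highest and the lowest strain (range 0.48, adjusted p = 3.94e-05, limma). Averaged over tissues it was higher than in C57BL/6J by 0.29 ± 0.0285 in DBA2/J (adjusted p = 1.42e-14), 0.25 ± 0.0285 in C3HeB/FeJ, 0.19 ± 0.0285 in AKR/J, against 0.12 ± 0.0285 in A/J.

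Rpl3l, which replaces Rpl3 in heart and skeletal muscle, had signals of 10.69 to 11.46 on the 18 heart arrays. Its levels elsewhere were 4.05 to 4.42 in brain, 3.96 to 4.52 in liver and 5.55 to 5.77 in testis. Its kidney signals were 5.39, 5.25 and 5.18 in A/J, 6.42, 6.79 and 6.22 in DBA2/J, 5.63, 5.52 and 5.36 in 129S2, 5.34, 5.23 and 5.33 in C3HeB/FeJ, 5.74, 5.74 and 5.41 in AKR/J, against 5.71, 6.04 and 5.65 in C57BL/6J. DBA2/J lay above all other strains (range 1.20, 2.3-fold, adjusted p = 6.03e-06, limma). In heart the strains did not pass (range 0.53, adjusted p = 0.0646). Without heart arrays 129S2 2 and 129S2 3 they did (range 0.60, adjusted p = 0.00951).

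In lung Rpl3l read 8.46 on array C3HeB/FeJ 3 and 4.64 to 5.26 on the other 17 arrays, and the strains did not pass (range 1.42, adjusted p = 0.304), nor without that array (range 0.29, adjusted p = 0.383). On the same array the 10 skeletal muscle markers averaged 9.37, against at most 6.07 on any other lung array, the 7 heart markers 12.82, against at most 11.73, and the 4 adipose markers 8.93, against at most 7.84. The part of those tissues in the Rpl3l signal was not tested.

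Rpl39l, the paralog of Rpl39 used in male germ cells, read 12.84 to 12.97 on the 18 testis arrays and 3.25 to 5.47 on the arrays of the other tissues. In testis the strain means lay 0.069 log2 units apart (adjusted p = 0.827, limma). In the other 5 tissues no strain difference passed (adjusted p from 0.19 to 0.688). Without brain arrays 129S2 2 and AKR/J 2, brain passed narrowly (range 0.42, adjusted p = 0.0475) at signals of 4.02 to 4.72, below the array medians of brain.

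**Figure D4:**
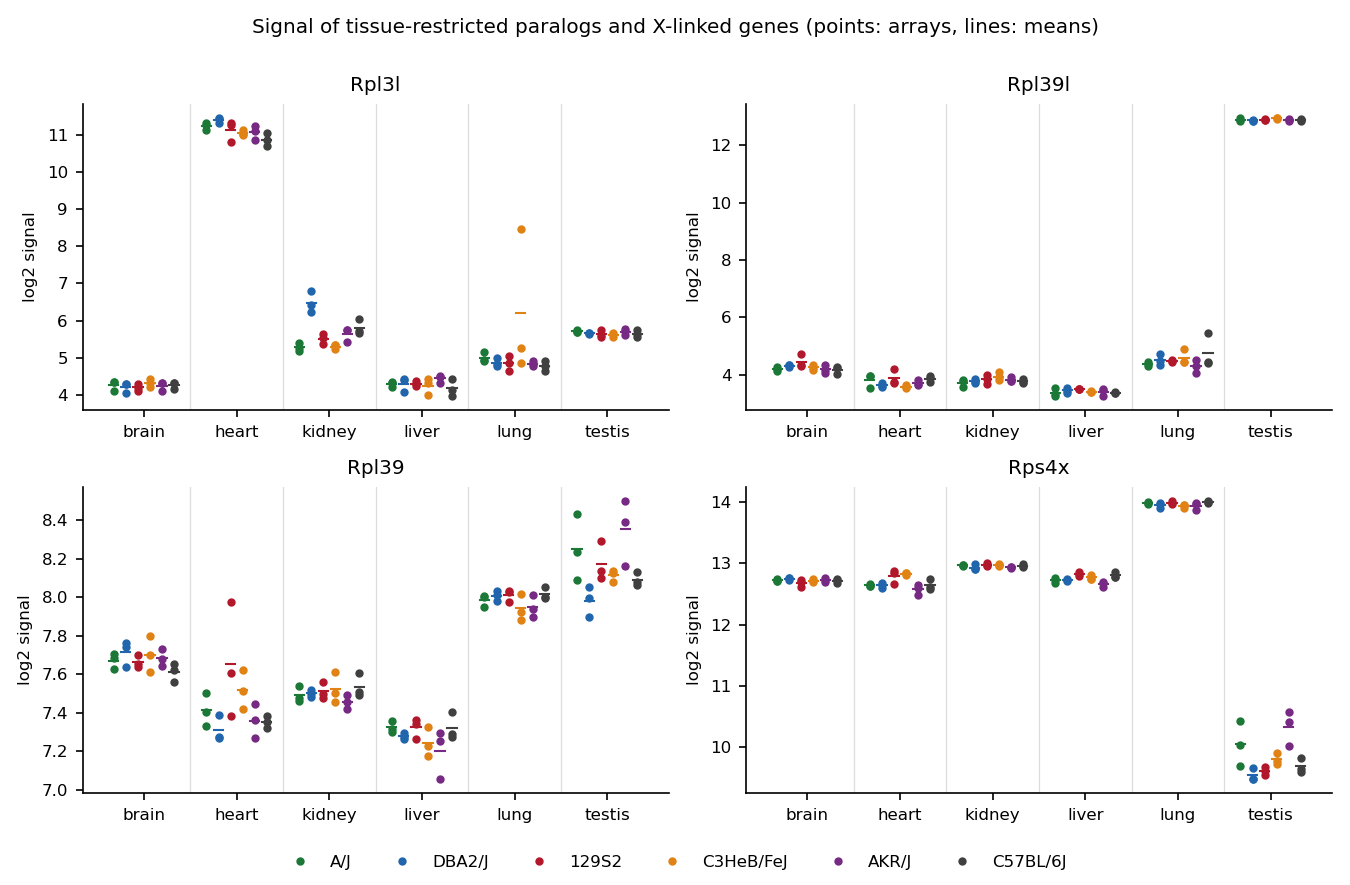
Log2 signal of Rpl3l, Rpl39l, Rpl39 and Rps4x on each array (points) with the strain mean (lines), by tissue, with C57BL/6J at the right of each tissue. Rpl3l is high in heart and on 1 lung array of C3HeB/FeJ, Rpl39l is high in testis, and the X-linked genes Rps4x and Rpl39 vary among strains in testis.

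With all arrays, the 2 X-linked members, Rps4x and Rpl39, passed only in testis among the 6 tissues. Rps4x, the small-subunit protein whose paralog is Rps4l, read 10.04, 10.43 and 9.69 in A/J testis, 9.48, 9.66 and 9.48 in DBA2/J, 9.68, 9.61 and 9.54 in 129S2, 9.78, 9.91 and 9.72 in C3HeB/FeJ, 10.02, 10.41 and 10.57 in AKR/J, against 9.82, 9.65 and 9.60 in C57BL/6J. AKR/J was the highest strain, its arrays overlapped those of A/J, and DBA2/J was the lowest on average (range 0.79, 1.73-fold, adjusted p = 0.00179, limma). In the other 5 tissues its strain means lay 0.050 to 0.26 log2 units apart at signals of 12.48 to 14.02. The widest of these, 0.26 in heart, was 0.30 without arrays 129S2 2 and 129S2 3, which leaves 1 array of 129S2. Its interaction with tissue passed (adjusted p = 4.26e-10).

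Rpl39, a small protein of the exit tunnel, read 8.23, 8.43 and 8.09 in A/J testis, 7.99, 8.05 and 7.89 in DBA2/J, 8.14, 8.29 and 8.10 in 129S2, 8.08, 8.14 and 8.12 in C3HeB/FeJ, 8.39, 8.16 and 8.50 in AKR/J, against 8.08, 8.13 and 8.06 in C57BL/6J. AKR/J had the highest and DBA2/J the lowest mean, as for Rps4x, with overlap (range 0.37, adjusted p = 0.0288, limma). The call was lost in 6 of 27 alternative settings. The probe set was dim, with a mean of 7.67 over all arrays, and a probe set that names Rpl39 together with another gene was not read. The 7 macrophage markers were also highest in AKR/J testis. They averaged 7.94 to 8.10 on the AKR/J arrays, 7.16 to 7.27 on the DBA2/J arrays and 7.51 to 7.65 on the C57BL/6J arrays. Their values in A/J, 129S2 and C3HeB/FeJ are not shown here. The adipose, skeletal muscle and lung markers too had their highest testis mean in AKR/J, at 6.005, 5.19 and 5.46, while the remaining marker lists peaked in other strains. The part of other cell types in the testis differences was not tested.

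With all arrays, other members passed in testis alone. Rps15, a small-subunit protein at the decoding site, averaged 11.96 in 129S2 and 11.47 in C3HeB/FeJ testis, with 11.60 in C57BL/6J (range 0.49, adjusted p = 2.44e-05, limma). Its ranges in the other tissues were 0.084 to 0.33 and did not pass. Rps3a1 (range 0.33, adjusted p = 0.00514), Rps19 (0.28, 0.00773) and Rps28 (0.27, 0.00236), all small-subunit proteins, likewise passed there alone. Their heart ranges were 0.40 for Rps3a1, 0.38 for Rps19 and 0.16 for Rps28, and did not pass with all arrays. Without heart arrays 129S2 2 and 129S2 3, which leaves 1 array of 129S2, these ranges were 0.30, 0.30 and 0.23.

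In heart, 1 array read high across most of the family. The mean deviation of the 36 bright ribosomal protein genes (average of 10 or more in heart) from their 18-array means was 0.43 log2 units on array 129S2 2, 0.093 on array 129S2 1 and -0.017 on array 129S2 3, against -0.021 to -0.067 on the C57BL/6J arrays. The mean deviation of all genes on array 129S2 2 was -6e-04. On that array 32 of the 36 bright genes read higher than on all 15 arrays of the other strains, against 15 on array 129S2 1 and 3 on array 129S2 3. Rps14, for example, read 12.99, 13.47 and 12.90 in 129S2 heart and 13.01, 13.04 and 12.97 in C57BL/6J heart. In AKR/J heart the deviation was -0.16 to -0.091, and in C3HeB/FeJ heart 0.064 to 0.088.

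With all heart arrays 21% of all genes passed. The shares of all genes without 1 array are not given here, so those counts are not set against a background. The heart count of the 49 genes moved with the 129S2 arrays. It was 16 of 49 with all arrays, 33 without array 129S2 3, 21 without array 129S2 2 and 26 without both (26.3% of all genes then passed, limma). Of the 16 genes, 15 also passed without both. The median range of the 49 genes fell to 0.29 without both arrays, against 0.34 with all of them. Rpl22l1 had a range of 0.86 in heart, with 10.87, 11.43 and 10.39 in 129S2 and 9.94, 10.20 and 9.98 in C57BL/6J, and a range of 0.83 without both.

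**Figure D5:**
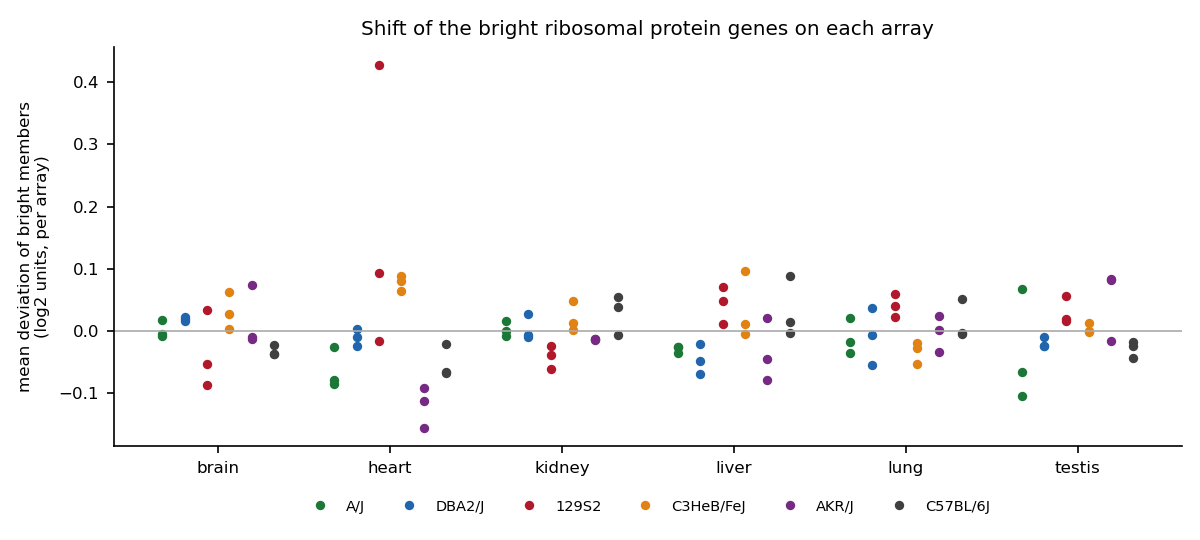
Mean deviation of the bright ribosomal protein genes (average of 10 or more) from their tissue means, per array, in log2 units, by tissue and strain, with C57BL/6J at the right of each tissue. Heart array 129S2 2 stands at 0.43, and all other points lie between -0.16 and 0.10.

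In brain, the genes that mark strains read between strains on arrays 129S2 2 and AKR/J 2. Rpl14 read 6.29, 7.51 and 6.22 in 129S2, 7.86, 7.20 and 7.86 in AKR/J, against 6.39, 6.47 and 6.22 in C57BL/6J. Rps6 read 6.77, 7.63 and 6.73 in 129S2, 8.01, 7.47 and 7.85 in AKR/J, against 7.95, 8.07 and 8.03 in C57BL/6J. In both genes the second array of 129S2 and the second of AKR/J lay inside the gap between these strains. Why they read so was not tested.

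Without those 2 arrays, 12 of 49 genes passed in brain (27.5% of all genes then passed), among them all 9 that passed with them. The range of Rps6 was 1.27 (adjusted p = 2.93e-10, limma), against 1.13 (0.000132) with all arrays, that of Rps25 0.91, against 0.76, and that of Rpl14 1.93 both ways (adjusted p = 3.41e-10 without them). The 3 added were Rpl39l, Rps9 and Rps18.

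Averaged over the 6 tissues and set against C57BL/6J, the calls went both ways and most were small. The contrasts share the C57BL/6J arrays, so each is given by itself. In A/J, 7 of 49 genes were higher, where 17% of all genes were, and 7 lower, where 12.6% were. In DBA2/J, 8 were higher, where 17.2% of all genes were, and 7 lower, where 12.3% were. In 129S2, 11 were higher, where 16.2% of all genes were, and 6 lower, where 13.4% were. In C3HeB/FeJ, 10 were higher, where 16.6% of all genes were, and 5 lower, where 11.7% were. In AKR/J, 4 were higher, where 15.8% of all genes were, and 6 lower, where 10.8% were. Without the 5 arrays that stand apart, the counts higher and lower were 8 and 8 in A/J, 11 and 7 in DBA2/J, 11 and 6 in 129S2, 13 and 5 in C3HeB/FeJ, and 7 and 7 in AKR/J, with 28.5% (AKR/J) to 32% (A/J) of all genes called in either direction. The median difference of the 49 genes was between -0.0083 in AKR/J, against 0.034 in 129S2, against medians of 0.012 to 0.020 for all genes.

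Strain differences that depended on the tissue were found for 42 of the 49 genes by the interaction test in limma (25 contrasts), where 72.4% of all genes passed. Without the heart arrays 36 passed, where 70.9% of all genes did. The residual SD of these genes was larger in heart than in kidney, which a fit over all arrays treats as equal. With each tissue's arrays weighted by its own spread, 43 passed, where 75.2% of all genes did. Without the 5 arrays that stand apart, 44 passed, where 73.5% of all genes did.

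Genes that make, regulate or accompany the ribosome gave a setting for these counts. Of the 76 mitochondrial ribosomal protein genes, 58 passed in kidney (76.3%, against 46.1% of all genes), 38 in heart (50%, against 21%), 38 in testis (50%, against 40.5%), 34 in liver (44.7%, against 31.6%), 26 in lung (34.2%, against 32.5%) and 25 in brain (32.9%, against 23.1%), with median ranges of 0.18 (brain) to 0.39 (heart) log2 units. Among these, Mrps5 averaged 9.22 in C3HeB/FeJ and 7.67 in A/J testis (range 1.56, adjusted p = 3.05e-13, limma), and Mrps12 8.78 in 129S2 and 9.90 in C57BL/6J liver (range 1.11). Of 38 ribosome biogenesis genes, 28 passed in kidney (73.7%), 19 in testis (50%), 15 in liver (39.5%), 10 in lung (26.3%), 7 in brain (18.4%) and 5 in heart (13.2%), so that lung, brain and heart lay below the shares of all genes just given. Polr1a, the large subunit of RNA polymerase I, averaged 7.97 in A/J and 6.79 in DBA2/J heart (range 1.18), and Nop58, a core protein of box C/D small nucleolar ribonucleoproteins, 5.73 in 129S2 and 6.67 in C57BL/6J liver (range 0.94).

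Of 18 translation factor genes whose mRNAs carry the same 5′ tract, 7 passed in kidney (38.9%), 6 in heart (33.3%), 6 in testis (33.3%), 5 in liver (27.8%), 4 in brain (22.2%) and 2 in lung (11.1%), below the share of all genes in each tissue but heart. Pabpc1, the poly(A)-binding protein, averaged 10.80 in DBA2/J and 11.83 in C57BL/6J heart (range 1.03, adjusted p = 0.00231, limma), and Nap1l1, a histone chaperone listed for its tract, 10.33 in 129S2 and 9.44 in C57BL/6J testis (range 0.88). Of 16 genes of the mTOR pathway, 9 passed in kidney (56.2%), 7 in liver (43.8%), 6 in testis (37.5%) and 3 each in brain, heart and lung (18.8%), above the share of all genes in kidney and liver and below it elsewhere. Larp1, which binds the tract, averaged 9.11 in 129S2 and 9.81 in C57BL/6J liver (range 0.71), and Mtor, the kinase itself, 8.49 in DBA2/J and 7.77 in 129S2 heart (range 0.72, adjusted p = 0.0393), a call lost in 14 of 28 alternative settings.

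Of 10 ribosome stress and quality control genes, 8 passed in kidney (80%), 6 in testis (60%), 4 each in brain, heart and liver (40%) and 1 in lung (10%), lung being the tissue below the share of all genes. Cdkn1a, the p53 target that encodes the cell cycle inhibitor p21, averaged 5.66 in AKR/J, against 7.11 in C57BL/6J liver (range 1.45), and Ltn1, the ubiquitin ligase of ribosome quality control, 8.51 in AKR/J, against 7.82 in C3HeB/FeJ liver (range 0.70). Of the subunit genes whose names fall outside the symbol rule 2 were measured, and 1 of these, Rpsa, passed in every tissue. Rpsa, a small-subunit protein, averaged 11.87 in AKR/J, against 11.31 in C57BL/6J testis (range 0.56, adjusted p = 2.63e-06).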

How the data were processed

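One array per sample was read from the authors' table of log2 signals, which the authors deposited after RMA, per the submitters' processing notes. The version, scan batches and genome build are not given in the sources used here. Groups came from the sample titles. For 4 arrays, all 129S2, the source name gives another animal number. No values were changed. At most 0.166% of values were identical between 2 replicates, so none was counted as a copy. Array medians ran from 4.95 in liver to 6.83 in lung, and 3 arrays per group limit the precision of every value. A probe set's signal can change with sequence under its probes.

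Of 45101 probe sets, 64 control, 932 several-gene and 9160 unnamed ones were left out. The 34945 single-gene probe sets (34741 matched in RefSeq GRCm38.p6) gave 18193 genes, each on its brightest probe set. The members and the gene lists were chosen with earlier results of these data known.

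In limma 3.58.1 (R 4.3.3), 6 strain means were fitted per tissue and compared by the moderated F test, Benjamini-Hochberg adjusted over all genes, threshold 0.05. A fit over all arrays with the animal as random block (consensus correlation 0.0184) gave contrasts averaged over tissues and the interaction. Data for kidney were simulated with 18193 genes. Of 100 genes shifted by 1 log2 unit 99 were recovered, and of 100 shifted by 0.3, 19 were, with 2 false calls. Only these genes were shifted, each in a single strain, while 46.1% of all genes passed in the kidney data. Recovery in the kidney data can therefore differ. Named genes were, by rule, the 5 widest calls per tissue, genes called in 4 or more tissues, the 3 largest averaged differences per contrast, the paralogs, Rps19bp1 and the measured parent genes, the 3 steadiest members, and the 2 widest calls per other list. Rplp0, Rplp2, Rpl12, Rps3a1, Rps9, Rps16, Rps18, Rps19, Rps20 and Rps28 were named after their values were seen. Alternatives covered normalization, filters, probe sets, priors, weights, blocks and left-out arrays. The bright-gene shares under the prior that follows intensity, the run opened at any C and the fits without the arrays that stand apart were chosen after seeing the data. Replicate numbers name different animals in different strains and do not pair the samples.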

Additional observations from a re-analysis of the deposited data

Results flagged for a closer look

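The strain differences of 17 of the 20 members looked at for it depended on the tissue, by limma's interaction F test over all arrays adjusted over all genes, where 72.4% of all genes passed. The adjusted p was 4.75e-19 for Rps2, with C3HeB/FeJ and DBA2/J at the ends in brain and level strains in lung, and 8.01e-14 for Rps25, with 129S2 below C57BL/6J by differences of -1.16 in lung and -1.45 in testis and above it by 0.077 in heart. It was 4.26e-10 for Rps4x, which varied in testis, and 5.34e-08 for Rps4l, whose range was 0.20 in testis and at least 2.09 in the other tissues. It was 5.51e-09 for Rpl14, whose range was smaller in testis than elsewhere, and 0.00243 for Rpl3l, which was high in DBA2/J kidney and on 1 C3HeB/FeJ lung array. It was 2.25e-09 for Rplp0, 9.14e-07 for Rpl22l1, 7.81e-05 for Rpl13a, 0.000538 for Rpl7l1, 0.000647 for Rps3, 9e-04 for Rpl7, 0.00115 for Rps19bp1, 0.00202 for Rpl39, 0.0428 for Rps27l, 0.0457 for Rps14 and 0.0483 for Rps6. For Rps14 the interaction no longer passed without the heart arrays (adjusted p = 0.0841). The C57BL/6J and 129S2 brain, heart and lung came from another set of animals than the kidney, liver and testis, which cannot be told apart from tissue in these tests.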

How the results depend on the processing

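Of 162 called results on single genes, 111 held in every setting, leaving out each array in turn included. The number of members passing was 16 in brain (27.2% of all genes) and 27 in kidney (47.5%) when the prior followed intensity and was robust. In heart it was 44 in one fit over all arrays (44% of all genes) and 26 (26.3%) without the 2 arrays that stand apart. In lung it was 10 (33.7%) with the mean of all probe sets of a gene, 12 (42.2%) in one fit and 12 (45.6%) with array weights. Leaving out 1 array at a time gave 17 to 22 in testis, 5 to 9 in lung, 7 to 11 in brain, 13 to 16 in kidney, 10 to 14 in liver and 11 to 33 in heart. For the averaged contrasts it gave 12 to 16 in A/J, 15 to 17 in DBA2/J, 14 to 24 in 129S2, 12 to 17 in C3HeB/FeJ and 8 to 13 in AKR/J, and 37 to 45 for the interaction. With the mean of all probe sets, averaged differences reversed for Rps9 (-1.26 in A/J, -1.19 in 129S2, -1.23 in C3HeB/FeJ, -1.24 in AKR/J), Rps3 (-0.36 in DBA2/J, -0.34 in C3HeB/FeJ) and Rps20 (-0.0068 in 129S2). Without probe sets of suffix _s_ or _x_ they reversed for Rps9 (-0.12 in A/J, -0.031 in AKR/J) and Rps20 (-0.062 in 129S2). With the replicate number as a block, 20 members passed in testis, 6 in lung, 9 in brain, 16 in kidney, 12 in liver and 14 in heart. For the block and for leaving out 1 array, the shares of all genes are not given here. Those counts are therefore not set against a background. No causes were tested. Dim probe sets bound what can be said of Rps16, Rpl12, Rpl14, Rps27, Rps6 and Rps25, whose brighter probe sets name several genes. The probe set of Rpl39 was dim as well, and its several-gene probe set was not read.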

Other observations

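A second probe set of Rps9, a small-subunit protein, was high in C57BL/6J in all 6 tissues. In lung it averaged 6.12 ± 0.0178 in A/J, 6.06 ± 0.120 in DBA2/J, 6.28 ± 0.155 in 129S2, 5.99 ± 0.133 in C3HeB/FeJ, 6.10 ± 0.0665 in AKR/J, against 10.84 ± 0.0243 in C57BL/6J (mean ± SD, n = 3 each; adjusted p = 9.25e-16, limma over all single-gene probe sets). Its strain means lay 2.80 log2 units apart in testis and 3.70 to 4.85 in the other tissues. On the brighter probe set that stands for Rps9 in the comparisons, C57BL/6J was not apart, with ranges of 0.12 to 0.36, and Rps9 passed in no tissue with all arrays. The dimmer probe set carries the suffix for probe sets that can bind similar sequences, and what it reads in C57BL/6J was not tested.

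Rpl13a had a further probe set with a wider difference in liver, at 8.30 ± 0.0219 in A/J, 8.73 ± 0.110 in DBA2/J, 8.74 ± 0.0946 in 129S2, 8.64 ± 0.0269 in C3HeB/FeJ, 8.76 ± 0.112 in AKR/J, against 9.36 ± 0.0458 in C57BL/6J (n = 3 each; range 1.06). C57BL/6J was the highest strain there as on the probe set used.

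The wide strain differences of the family were read on probe sets of unlike brightness. Those of Rps14, Rps2 (brain) and Rpl13a (liver) recurred, with the same strains highest or lowest, on the further bright probe sets described here. The probe sets used for Rps14, Rps2 and Rpl13a carry the suffix for probe sets that can bind similar sequences. The further readings may therefore not be independent of them. Rpl14, Rps6 and Rps25 differed widely on probe sets with a mean of 6.18, 7.26 and 7.52, and by at most 0.35, 0.41 and 0.27 log2 units on the bright probe sets that name other genes too. Whether sequence differences between strains under the probes took part was not tested.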
